A study of Mus musculus with 20 samples.

Results

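The glutathione and NRF2 antioxidant genes are 39 genes, taken by symbol: the glutathione transferases, the enzymes of glutathione synthesis and recycling, glutathione peroxidases, thioredoxin and peroxiredoxin genes, superoxide dismutases, catalase, and the regulator pair Nfe2l2 and Keap1. All 39 had a row among the 46095 gene symbols of the count table, and 38 passed the filter on low counts that left 14440 genes for testing. The exception was Gstp2, which had 0 to 5 counts per library. Liver RNA came from 20 mice in 4 groups of 5. Wild-type (WT) mice and mice lacking Pck1 in the liver only (Pck1-cKO in the labels, KO here) ate either chow or a NASH diet, which causes non-alcoholic steatohepatitis. Feeding lasted 24 weeks, and the animals' age was 31 to 33 weeks. The labels name no Cre driver, strain or sex, and number the mice of each group separately. The question was what loss of Pck1 does to the liver transcriptome with and without the NASH diet.

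Glutathione is a small thiol made in large amounts by hepatocytes from glutamate, cysteine and glycine. Glutathione peroxidases spend it to reduce peroxides, glutathione transferases join it to electrophiles and drug metabolites, and glutathione reductase restores it with NADPH. NRF2, encoded by Nfe2l2, is the transcription factor that raises many of these genes. KEAP1 holds NRF2 in the cytoplasm and marks it for degradation, and oxidants or electrophiles that modify KEAP1 let NRF2 reach antioxidant response elements in the DNA. Much of this control acts on the NRF2 protein, which RNA counts do not measure. In liver, several transferases also differ in level between the sexes and between the pericentral and periportal zones of the lobule.

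Promoter windows, 250 bases before to 50 after a start site in RefSeq on GRCm38.p6, were found for 34 of the 39 genes. The core of the antioxidant response element was searched on both strands as TGACNNNGC and as TGAGNNNGC, a pair of patterns that cannot match at the same position on the same strand. The former was in the windows of 10 of the 34 genes (29.4%), against 14% of 27025 genes with a window. The latter was in 7 of 34 (20.6%), against 19.8% of all genes, and either was in 14 of 34 (41.2%), against 30.8%. The windows of Srxn1 (chr2:152105274-152105573, plus strand) and Prdx1 (chr4:116685349-116685648, plus strand) are shown because these antioxidant genes differed between genotypes in the tests below and hold matches. The Prdx1 difference passed narrowly (edgeR adjusted p 0.0481) and was lost in 11 of 20 fits without 1 library. The windows of Gstm3 (chr3:107969125-107969424, minus strand) and Gsta1 (chr9:78230419-78230718, plus strand) are shown because these transferases changed and their windows hold no match. Each is written 5′ to 3′ along the gene's strand, with matches on either strand in capitals.
Srxn1: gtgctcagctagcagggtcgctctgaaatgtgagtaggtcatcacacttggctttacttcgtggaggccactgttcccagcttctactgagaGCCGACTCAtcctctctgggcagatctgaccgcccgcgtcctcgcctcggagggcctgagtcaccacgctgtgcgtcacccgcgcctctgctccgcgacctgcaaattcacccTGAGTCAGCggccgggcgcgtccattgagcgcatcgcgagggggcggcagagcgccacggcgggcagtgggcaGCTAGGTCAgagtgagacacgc
Prdx1: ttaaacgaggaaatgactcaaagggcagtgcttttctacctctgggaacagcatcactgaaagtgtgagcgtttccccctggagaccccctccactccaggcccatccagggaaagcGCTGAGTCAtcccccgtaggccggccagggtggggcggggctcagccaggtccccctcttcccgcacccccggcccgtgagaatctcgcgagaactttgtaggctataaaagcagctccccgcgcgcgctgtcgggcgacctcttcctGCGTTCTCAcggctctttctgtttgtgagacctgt
Gstm3: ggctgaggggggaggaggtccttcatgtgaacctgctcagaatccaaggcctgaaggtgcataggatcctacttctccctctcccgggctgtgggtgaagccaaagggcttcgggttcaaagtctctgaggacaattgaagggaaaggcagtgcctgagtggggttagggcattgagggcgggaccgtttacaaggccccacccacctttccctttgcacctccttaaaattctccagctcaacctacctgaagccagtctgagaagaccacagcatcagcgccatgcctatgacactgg
Gsta1: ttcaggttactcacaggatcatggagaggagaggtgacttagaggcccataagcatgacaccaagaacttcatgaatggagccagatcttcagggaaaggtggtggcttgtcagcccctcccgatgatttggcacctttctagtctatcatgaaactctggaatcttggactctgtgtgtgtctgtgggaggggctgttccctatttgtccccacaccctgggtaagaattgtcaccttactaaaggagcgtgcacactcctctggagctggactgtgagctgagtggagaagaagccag

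In the Srxn1 window 1 match lay on the gene's strand, 45 bases before the start site, and 2 on the opposite strand, 158 bases before it and 28 after. The 2 matches of Prdx1 lay on the opposite strand, 133 bases before and 15 after. The other genes with a match were Gclm, Gsta3, Gstm5, Gstm7, Gstp1, Gstp2, Gstt1, Gstz1, Mgst1, Nfe2l2, Sod1 and Txnrd1. A match is a string of letters and was not tested as a binding site.

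The libraries held 9958935 to 20601955 counts each, so that 1 CPM, a count scaled to a common library total by TMM, stood for 7 to 25 reads. Pck1, the deleted gene, averaged 3573 CPM on chow and 2290 CPM on the NASH diet in WT, against 626 and 445 CPM in KO. It fell by 2.51 (SE 0.291) on the log2 scale on chow and by 2.36 (SE 0.289) on the NASH diet, with edgeR adjusted p of 0.00011 and 6.13e-05. Hepatocyte markers were high throughout, with a summed level of 45151 to 116759 CPM for 6 genes. Alb made up most of that sum, with group means of 49467 to 65739 CPM. Of the 6, 1 was called lower in KO than in WT on each diet. Serpina1c averaged 2063 and 1398 CPM in WT chow and WT NASH, against 666 and 634 CPM in KO chow and KO NASH. The groups were unequal in sex, as read from 4 Y-linked genes: WT chow held 5 males, WT NASH 1, KO chow 3 and KO NASH 4. In 6 libraries (WT chow replicates 3, 4 and 5, WT NASH 4, KO chow 4 and 5) levels fell with gene length relative to the mean of all libraries, with a slope of -0.34 to -0.25, against 0.01 to 0.19 in the other 14, and these 6 are called the negative-slope libraries below. KO NASH held none of them. Calls that are lost without these libraries are given with and without them. The 14 libraries without them hold 2 male livers of WT chow, 4 female livers of WT NASH, 2 male and 1 female of KO chow, and 4 male and 1 female of KO NASH. In those 14, diet and sex in WT therefore cannot be told apart, and WT NASH holds no male to set against the mostly male KO NASH.

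The members did not move as 1 block. In WT NASH against WT chow 5 of the 38 tested members changed (13.2%), while 5.93% of all tested genes did. Of these members 3 rose and 2 fell, beside 2.69% of all genes higher and 3.24% lower. In KO chow against WT chow 2 changed, both upward (5.26%), against 5.53% of all genes (3.03% higher, 2.49% lower). In KO NASH against KO chow 1 rose (2.63%), against 3.29% of all genes (1.77% higher, 1.52% lower). In KO NASH against WT NASH 5 changed (13.2%), 4 upward and 1 downward, against 9.65% of all genes (4.90% higher, 4.74% lower). All calls are edgeR quasi-likelihood tests at a Benjamini-Hochberg adjusted p under 0.05 over all 14440 genes. Unless another fit is named, a gene described as called, not called or passing refers to this main fit of all 20 libraries. The median log2 fold change of the members was 0.01, -0.06, -0.1 and -0.09 in these 4 comparisons in the order given, against 0.01, 0, -0.02 and 0 over all genes. In the same order, the groups did not overlap for 4, 1, 2 and 7 of the 38 members, against 6.15, 4.91, 8.50 and 14.1% of all tested genes. The comparisons share groups and are not independent of each other. A change in bulk liver can come from fewer cells of a type or from less RNA per cell, and these cannot be told apart.

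**Figure D1:**
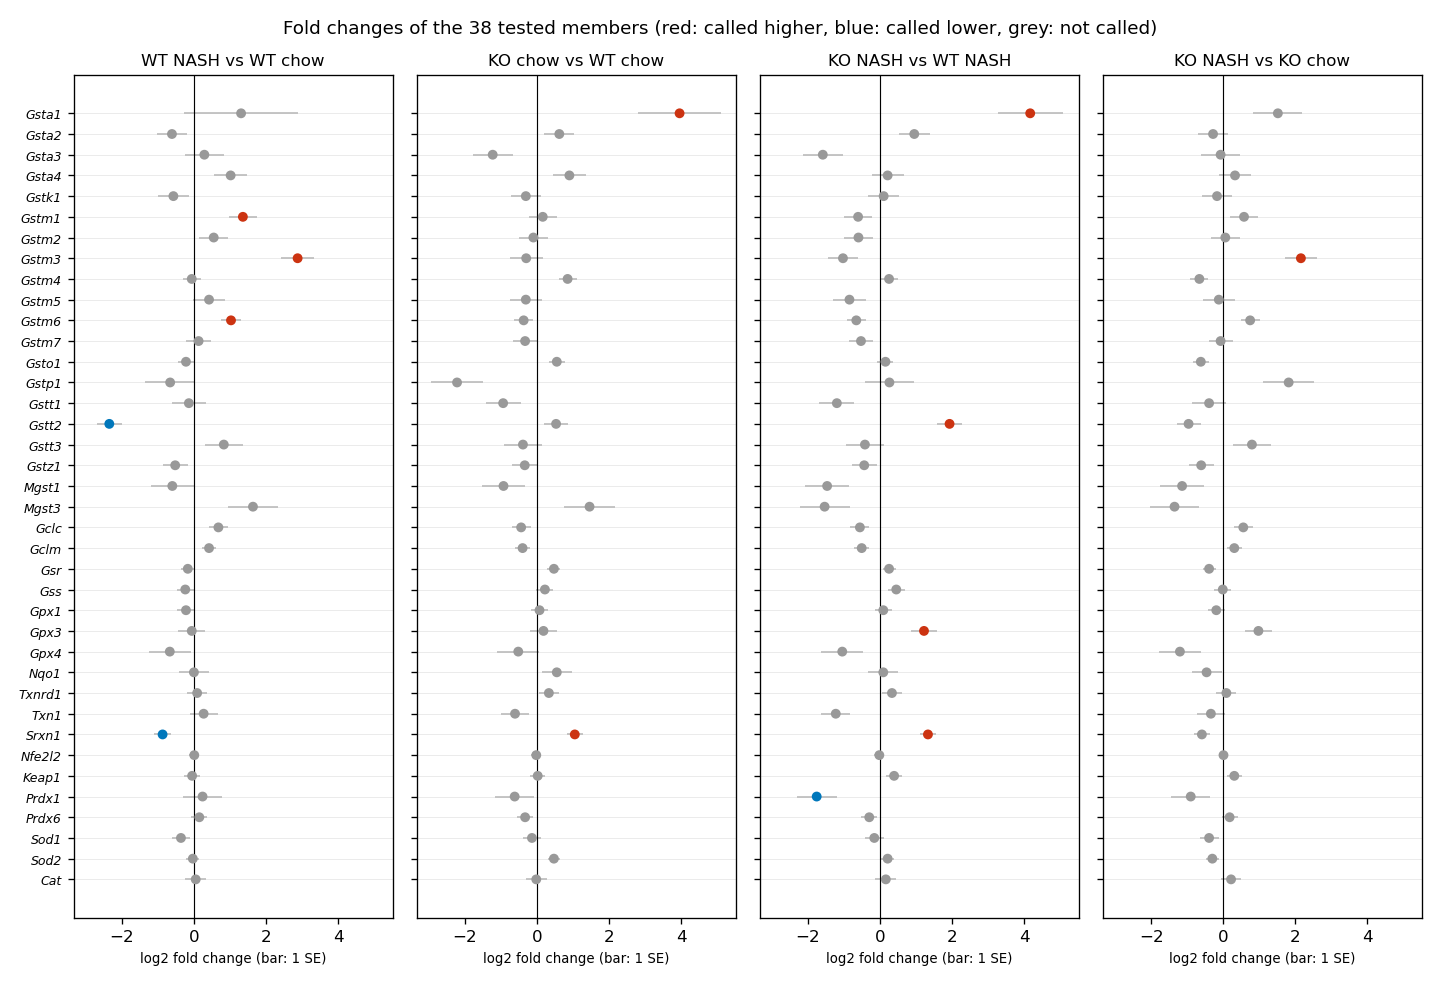
Log2 fold change (x axis) of the 38 tested members (y axis) in the 4 comparisons, with bars of 1 standard error. Red points were called higher, blue points lower and grey points were not called: 5, 2, 5 and 1 members were called in the panels from left to right.

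Srxn1, which encodes sulfiredoxin, the enzyme that repairs overoxidised peroxiredoxins, was called in 3 comparisons, more than any other member. The gene lies on chromosome 2 (152105516 to 152111376, plus strand, GRCm38). Its levels were 52.9, 41.5, 73.3, 74.1 and 53.0 CPM in WT chow. In WT NASH they were 36.7, 31.4, 32.3, 31.0 and 29.3 CPM. In the knockout they were 146, 149, 63.3, 97.5 and 153 CPM on chow and 93.0, 69.5, 85.1, 62.4 and 95.2 CPM on the NASH diet. Every KO NASH library lay above every WT NASH library, a separation seen in 14.1% of all tested genes. Every WT NASH library lay below every WT chow library, as seen in 6.15% of all tested genes, and 1 KO chow library (replicate 3) fell within the range of WT chow.

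Loss of Pck1 went with more Srxn1 RNA on both diets: it rose by 1.05 (SE 0.227, edgeR adjusted p 0.0109) on the log2 scale on chow and by 1.33 (SE 0.229, adjusted p 0.00135) on the NASH diet. The genotype effects on the diets were not shown to differ, with an interaction of 0.29 (95% confidence interval -0.38 to 0.95). Both genotype calls held in all 20 fits that left out 1 library and with sex as a term (adjusted p 0.00901 and 0.0133). The call on chow was lost when only the groups compared were fitted (adjusted p 0.0879), over a range of 0.000466 to 0.246 across all settings. In females alone, with 1 KO NASH library, the difference on the NASH diet was 1.12 (adjusted p 0.487). With the diet, Srxn1 fell in WT by 0.87 on the log2 scale (SE 0.227, adjusted p 0.0275). That call was lost with sex as a term (-0.72, adjusted p 0.271), in the 14 libraries without a negative slope (-0.53, adjusted p 0.282), and when WT chow replicate 3 or 4 or WT NASH replicate 2, 3 or 5 was left out (adjusted p up to 0.0836). Its adjusted p ran from 0.000537 to 0.317 over all settings.

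Gstt2, a theta-class transferase, was lowest in WT mice on the NASH diet. The gene lies on chromosome 10 (75831114 to 75837424, minus strand) beside Gstt1 and Gstt3. It stood at 96.1, 76.2, 174, 78.5 and 219 CPM in WT chow and at 37.4, 23.4, 27.3, 13.7 and 24.1 CPM in WT NASH. KO chow gave 136, 111, 118, 290 and 277 CPM, and KO NASH 92.7, 93.8, 101, 100 and 92.8 CPM. No WT NASH library reached the lowest library of any other group, and the KO NASH libraries were close together. Groups were apart in 6.15% of all tested genes in WT NASH against WT chow and in 14.1% in KO NASH against WT NASH.

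Gstt2 fell by 2.35 (SE 0.350) on the log2 scale with the diet in WT, with an edgeR adjusted p of 0.000597. In KO NASH it was 1.93 (SE 0.345, adjusted p 0.00178) higher than in WT NASH. In KO NASH against KO chow the log2 fold change was -0.96 and did not pass (adjusted p 0.108), although all 5 KO NASH libraries were below all 5 KO chow ones. Such a separation was seen in 8.50% of all tested genes there. The interaction was 1.4 (SE 0.473, adjusted p 0.318) in all 20 libraries and 1.27 (adjusted p 0.0306) in the 14 without a negative slope. In those 14, WT chow is all male, WT NASH all female and KO NASH mostly male, so sex enters this interaction as well. Sex as a term left both calls (-2.63, adjusted p 0.00619; 2.15, adjusted p 0.00554), and so did leaving out any 1 library. WT NASH held 1 male (replicate 4, at 13.7 CPM, the lowest value), and in males alone the diet difference was -3.26 (adjusted p 0.0706). In females alone, with 1 KO NASH library, the genotype difference was 1.77 (adjusted p 0.235). Of the gene's 50-base stretches, 0.636% also occur in another gene. Its neighbours Gstt1 and Gstt3 were not called in any comparison in the main fit. Gstt1 averaged 343, 312, 178 and 136 CPM in WT chow, WT NASH, KO chow and KO NASH. Gstt3 averaged 39.2, 69.8, 29.9 and 52.1 CPM in that order. For Gstt1 every KO NASH library (95.1 to 182 CPM) was below every WT NASH one (218 to 519 CPM). The log2 fold change was -1.2 (edgeR adjusted p 0.123), opposite in sign to Gstt2. Limma voom, fitting only the groups compared, the length slope as a term and the 14 libraries called it there. Limma voom and sex and length slope together called Gstt1 in KO chow against WT chow. Limma voom called Gstt3 with the diet in WT.

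The mu-class transferases lie side by side on chromosome 3. Of the 7, 3 were called higher with the diet in WT, against 2.69% of all tested genes. With sex as a term, Gstm3 alone of these 3 kept its call. Gstm3 (chromosome 3, 107963696 to 107969283, minus strand) moved most. Its levels were 2.55, 4.44, 0.597, 0.475 and 2.56 CPM in WT chow. In WT NASH they were 13.4, 26.2, 21.9, 7.80 and 11.4 CPM. In the knockout they were 2.32, 2.17, 1.98, 1.38 and 0.972 CPM on chow and 6.86, 7.57, 5.40, 10.3 and 9.61 CPM on the NASH diet. The diet groups did not overlap in either genotype, a separation seen in 6.15% of all tested genes in WT and in 8.50% in KO.

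Gstm3 rose with the diet by 2.88 (SE 0.461, edgeR adjusted p 0.000978) on the log2 scale in WT and by 2.16 (SE 0.451, adjusted p 0.0171) in KO. The diet effects were not shown to differ, with an interaction of -0.73 (95% confidence interval -2.02 to 0.57). KO NASH was 1.03 below WT NASH on that scale (log2 fold change -1.03, adjusted p 0.129). Both diet calls held without any 1 library and with sex as a term (2.77, adjusted p 0.0292; 2.17, adjusted p 0.0155). In males alone, with 1 WT NASH library, they were lost (1.8, adjusted p 0.29; 2.02, adjusted p 0.127). Stretches shared with other genes made up 28.8% of Gstm3, so its counts could hold reads of close copies.

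Gstm1, an abundant mu-class member, stood at 385, 347, 108, 86.8 and 227 CPM in WT chow and at 579, 792, 723, 289 and 571 CPM in WT NASH. The WT NASH male, replicate 4, was the library that fell within the WT chow range. KO chow gave 284, 239, 254, 417 and 97.2 CPM and KO NASH 344, 389, 355, 469 and 372 CPM. Gstm1 rose in WT with the diet by 1.36 (SE 0.396) on the log2 scale, just past the threshold (edgeR adjusted p 0.0465). The call was kept in 5 of the 20 fits without 1 library (adjusted p up to 0.122) and lost with sex as a term (adjusted p 0.248). It was lost without WT chow replicate 3, 4 or 5, without any WT NASH replicate but 4, without KO chow replicate 1, 2 or 3 and without any KO NASH replicate. In the 14 libraries without a negative slope it was 0.88 (adjusted p 0.0181), there as a difference between males and females as well. Over all settings the adjusted p ran from 2.44e-05 to 0.863.

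Gstm6 stood at 31.2, 30.3, 15.4, 10.5 and 25.4 CPM in WT chow and at 43.5, 46.2, 61.0, 41.9 and 39.2 CPM in WT NASH, with no overlap. KO chow gave 25.3, 15.6, 15.8, 19.6 and 10.9 CPM and KO NASH 26.0, 33.6, 26.6, 35.6 and 24.7 CPM, all below WT NASH. Groups were apart in 6.15% of all tested genes in WT NASH against WT chow and in 14.1% in KO NASH against WT NASH. It rose by 1.03 (SE 0.265, edgeR adjusted p 0.0256) on the log2 scale with the diet in WT. The call was lost with sex as a term (1.13, adjusted p 0.121), in the 14 libraries without a negative slope (0.64, adjusted p 0.128), and without WT chow replicate 3 or WT NASH replicate 2 or 3 (adjusted p up to 0.0723). Over all settings it ran from 0.00029 to 0.415. The other mu-class genes, Gstm2, Gstm4, Gstm5 and Gstm7, were not called in the main fit. With the diet in WT, the length slope as a term called Gstm5 and Gstm7, sex and length slope together called Gstm5, and limma voom called Gstm2. Gstm4 came nearest, with 31.1 ± 11.1 CPM in WT chow and 55.9 ± 20.1 CPM in KO chow (SD, n = 5 each; log2 fold change 0.85, edgeR adjusted p 0.0522), and it was called by DESeq2 (adjusted p 0.0231), under a replicate block (0.0491) and in the 14 libraries without a negative slope (0.93, adjusted p 0.0311).

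**Figure D2:**
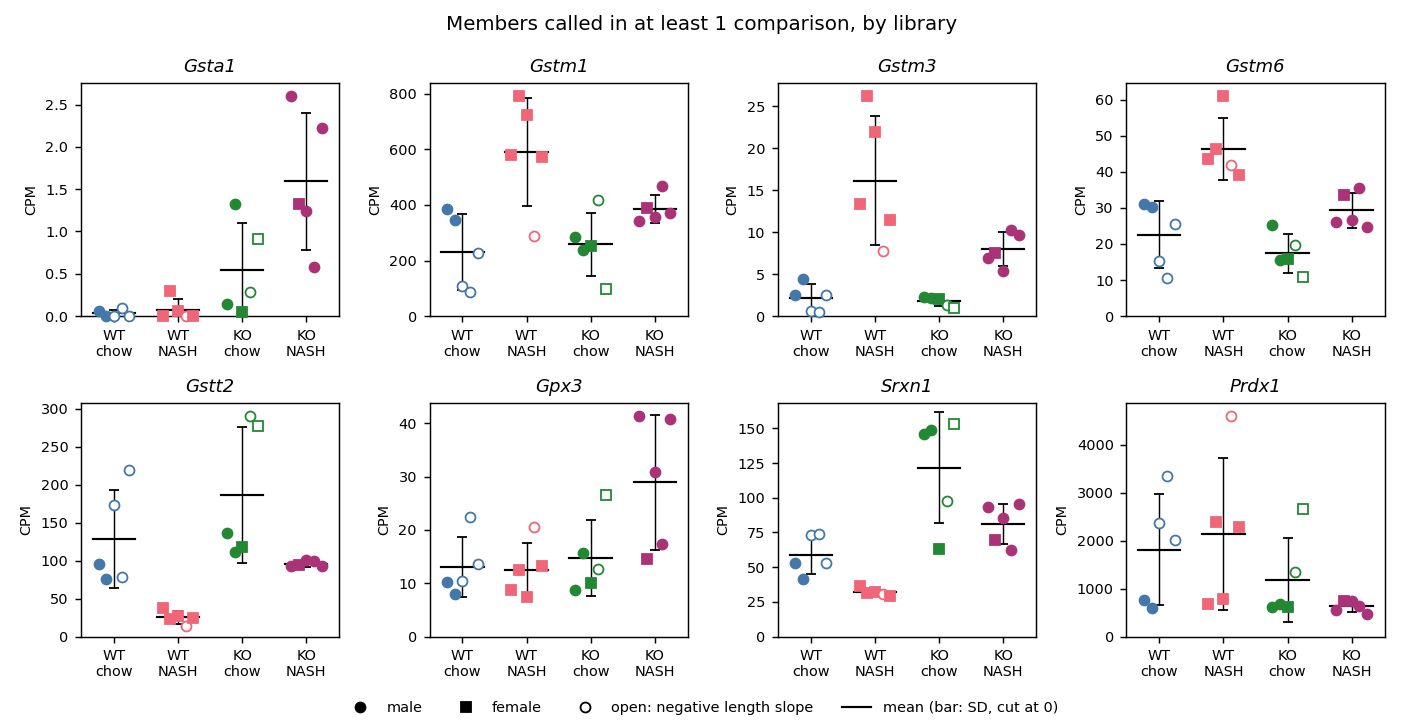
CPM (y axis) of the 8 members called in at least 1 comparison, by library in the 4 groups (x axis). Circles are male and squares female livers, open symbols are the 6 negative-slope libraries, and lines and bars are mean and SD (n = 5, bars cut at 0). The WT NASH libraries lie below all others for Gstt2, and for Gstm3 both NASH groups lie above both chow groups.

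Gsta1, an alpha-class transferase that detoxifies electrophiles and is a known NRF2 target, was close to absent in WT and detected in KO. In raw counts, the libraries held 1, 0, 0, 1 and 0 in WT chow, 0, 5, 1, 0 and 0 in WT NASH, 3, 33, 1, 4 and 15 in KO chow, and 61, 31, 20, 12 and 49 in KO NASH. All KO NASH libraries were above all WT NASH ones, a separation seen in 14.1% of all tested genes, whereas KO chow ranged from WT levels upward. Summed over a group and scaled for depth, KO NASH was 19.4 times WT NASH (173 against 6 counts; exact 95% interval 8.72 to 53.5, counting error only). KO chow was 20.3 times WT chow (56 against 2 counts; 5.37 to 172).

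Gsta1 was higher in KO on the NASH diet with an edgeR adjusted p of 0.00606 and on chow with 0.0363. Only KO libraries carried it past the filter on low counts, so it was tested because of the groups where it is high. It was not tested when only WT chow and KO chow were fitted, nor at a minimum mean of 5 CPM. The former call held without any 1 library and was lost in males alone, with 1 WT NASH library (adjusted p 0.088), and in females alone, with 1 KO NASH library (log2 fold change 3.77, adjusted p 0.502). The latter was lost without any 1 WT chow library or without KO chow replicate 2 (log2 fold change 3.26, adjusted p 0.128). It was also lost in the 14 libraries without a negative slope (3.93, adjusted p 0.198). Its adjusted p ran from 0.00782 to 0.302 over the fits that tested the gene. Within KO, the diet groups (173 against 56 counts, ratio 2.83, interval 2.08 to 3.89) did not pass over libraries (adjusted p 0.191). Of the 50-base stretches of Gsta1, 90.5% occur in another gene, and 75.7% in the predicted gene Gm3776. Gm3776, named after its values were seen, had 4, 5, 38 and 73 counts in WT chow, WT NASH, KO chow and KO NASH, so the source of these reads among the copies is uncertain. Gsta1 lies on chromosome 9 (78230656 to 78242684, plus strand).

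Gsta3, the most abundant alpha-class member, averaged 1164 CPM in WT chow, 1422 CPM in WT NASH, 498 CPM in KO chow and 473 CPM in KO NASH. Its genotype differences did not pass, at -1.23 (edgeR adjusted p 0.229) on chow and -1.59 (adjusted p 0.0781) on the NASH diet on the log2 scale. On the NASH diet Gsta3 was called lower by DESeq2 (-1.6, adjusted p 0.0268), by limma voom, with only the groups compared, under a replicate block (-1.47, adjusted p 0.0392) and in males alone. On chow it was called lower by limma voom and in both fits with the length slope as a term (-1.06, adjusted p 0.0332, without sex). Libraries within a group ranged widely, from 758 to 3383 CPM in WT NASH. Gsta2 and Gsta4 were not called in the main fit, with library ranges of 2.13 to 33.0 and 4.46 to 46.1 CPM over all 20 livers. In KO NASH against WT NASH Gsta2 was called by limma voom, with the length slope as a term and in the 14 libraries without a negative slope. Limma voom called Gsta4 in both comparisons with WT chow. In Gsta2, 49.8% of the stretches are shared with other genes.

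Gstp1, the pi-class transferase and a known NRF2 target, was lower in every KO chow library than in every WT chow library without passing the test. It stood at 31.3, 30.1, 13.7, 44.3 and 15.0 CPM in WT chow and at 4.82, 4.87, 13.0, 4.43 and 1.58 CPM in KO chow. WT NASH gave 1.61, 31.4, 5.69, 18.1 and 28.3 CPM and KO NASH 3.58, 37.0, 19.1, 36.7 and 5.49 CPM, both with low and high libraries. The log2 fold change on chow was -2.22 (SE 0.720, edgeR adjusted p 0.0768); a separation of groups like this was seen in 4.91% of all tested genes in that comparison, and Gstp1 was the 1 member with it. DESeq2 called it (adjusted p 0.0138). The genotype effect differed between diets by 2.48 (95% confidence interval 0.43 to 4.54), which did not pass over all genes (adjusted p 0.458). Gstp2, its close copy, had 17 counts in all, and 33.7% of the stretches of Gstp1 are shared, so reads of the pair could be split.

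The microsomal transferase Mgst1 was the most abundant member per length, at a mean level of 3287 CPM per kb of exon over all livers, ahead of Cat at 875 and Gpx1 at 857 on the same scale. Mgst1 averaged 10933, 7201, 5732 and 2602 CPM in WT chow, WT NASH, KO chow and KO NASH. None of its differences passed, and all 6 negative-slope libraries (7622 to 21114 CPM) lay above all of the other 14 (1924 to 6678 CPM). The same held for Gstk1, a mitochondrial and peroxisomal transferase, for Gstz1, which also acts in tyrosine breakdown, and for Gpx4. Mgst3 ranged from 3.08 to 104 CPM. The main fit did not call it, with a log2 fold change of 1.64 (edgeR adjusted p 0.172) with the diet in WT. In the 14 libraries without a negative slope this diet difference was 3.37 (adjusted p 0.00948), where WT chow is all male and WT NASH all female. Over all 20 libraries, limma voom and both fits with the length slope as a term, with and without sex, called it with the diet in WT. Both slope fits also called Mgst3 in KO chow against WT chow. In KO NASH against WT NASH it was called by limma voom, with only the groups compared and in the 14 libraries. Gsto1 averaged 78.8, 67.6, 116 and 75.3 CPM in the 4 groups in that order and was not called.

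None of the 4 genes of glutathione synthesis and recycling passed in the main fit, while other fits called 3 of them. Gclc encodes the catalytic and Gclm the modifier subunit of glutamate-cysteine ligase, the rate-limiting step, Gss the second enzyme and Gsr glutathione reductase. Gclc stood at 205, 156, 194, 93.3 and 157 CPM in WT chow, and in WT NASH at 293, 292, 276, 202 and 226 CPM. KO chow gave 93.9, 131, 127, 151 and 91.0 CPM and KO NASH 104, 176, 179, 290 and 124 CPM. The highest mean was that of WT NASH, whose lowest library, replicate 4, overlapped with WT chow. The log2 fold change of Gclc with the diet was 0.68 (95% confidence interval 0.13 to 1.23, edgeR adjusted p 0.133) in WT and 0.56 (0.01 to 1.1, adjusted p 0.217) in KO, and that of KO NASH against WT NASH was -0.56 (-1.11 to -0.01, adjusted p 0.183). Gclm averaged 98.4, 132, 74.6 and 92.6 CPM in WT chow, WT NASH, KO chow and KO NASH. In KO NASH against WT NASH its log2 fold change was -0.51 (95% confidence interval -0.93 to -0.08, edgeR adjusted p 0.121). It was called lower there by limma voom, in both fits with the length slope as a term and in the 14 libraries without a negative slope. Gsr averaged 48.7, 43.2, 67.3 and 51.3 CPM and Gss 51.0, 43.0, 59.4 and 58.8 CPM. Limma voom and the fit with sex and length slope as terms called Gsr in KO chow against WT chow and in KO NASH against KO chow. Limma voom also called Gclc with the diet in WT and in KO NASH against WT NASH, and Gclm with the diet in WT.

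Of the glutathione peroxidases, Gpx3, the secreted form, rose in KO NASH. It stood at 10.3, 8.07, 10.5, 22.4 and 13.7 CPM in WT chow. WT NASH gave 8.78, 12.4, 7.39, 20.6 and 13.3 CPM, and KO chow 8.71, 15.7, 10, 12.6 and 26.5 CPM. KO NASH gave 41.3, 14.5, 30.9, 17.3 and 40.8 CPM. Replicates 1, 3 and 5 of KO NASH were above every library of the other groups, while replicates 2 and 4 fell inside their range. The difference from WT NASH was 1.22 (SE 0.371, edgeR adjusted p 0.042) on the log2 scale. It was lost with sex as a term (1.02, adjusted p 0.167), with KO NASH replicates 1 and 5 summed (1.08, adjusted p 0.109) and in 10 of 20 fits without 1 library (adjusted p up to 0.114), namely WT chow 3 or 5, KO chow 4, KO NASH 1, 3 or 5 and any WT NASH replicate but 4. Over all settings the adjusted p ran from 0.00261 to 0.971. Gpx1, the main cytosolic peroxidase of liver, averaged 1291, 1112, 1352 and 1185 CPM and Gpx4, which reduces lipid peroxides in membranes, 347, 218, 242 and 105 CPM in WT chow, WT NASH, KO chow and KO NASH, and neither was called. Of the stretches of Gpx4, 34.7% are shared with the pseudogene Gpx4-ps2.

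Prdx1 encodes a peroxiredoxin that reduces hydrogen peroxide with electrons from thioredoxin and is a substrate of sulfiredoxin. It stood at 756, 585, 2364, 3349 and 2015 CPM in WT chow and at 680, 2385, 772, 4586 and 2293 CPM in WT NASH. KO chow gave 617, 669, 613, 1335 and 2664 CPM and KO NASH 560, 749, 740, 628 and 480 CPM. In each of the other 3 groups the negative-slope libraries were high, and in WT NASH replicates 2 and 5 as well. Those replicates had a length slope of 0.01, the lowest of the 14 libraries without a negative slope, against 0.16 and 0.14 in WT NASH replicates 1 and 3. The KO NASH libraries, none with a negative slope, were all low. Prdx1 fell by 1.76 (SE 0.552, edgeR adjusted p 0.0481) on the log2 scale in KO NASH against WT NASH, with overlap between the groups. In the 14 libraries without a negative slope it was -1.28 (adjusted p 0.0156), with 4 female WT NASH livers against 4 male and 1 female of KO NASH. The call was lost in 11 of 20 fits without 1 library (adjusted p up to 0.168), namely WT chow 3 or 5, WT NASH 2, 4 or 5, KO chow 4 and any KO NASH replicate. It was also lost with sex as a term (adjusted p 0.083), without a low-count filter (0.0529) and without the 20 most abundant genes in the scaling (0.0504), over a range of 0.00994 to 0.965.

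Txn1, the thioredoxin that feeds the peroxiredoxins, averaged 170 CPM in WT chow, 205 CPM in WT NASH, 111 CPM in KO chow and 87.6 CPM in KO NASH. All KO NASH libraries (60.1 to 106 CPM) were below all WT NASH ones (110 to 479 CPM), a separation seen in 14.1% of all tested genes. The log2 fold change of -1.23 did not pass (edgeR adjusted p 0.055). DESeq2, limma voom and both fits with the length slope as a term called Txn1 there. In the 14 libraries without a negative slope the log2 fold change was -0.64 (edgeR adjusted p 0.0183). Those hold 4 female WT NASH livers against 4 male and 1 female of KO NASH. Txnrd1, the reductase that recharges thioredoxin, stood at 130, 117, 69.1, 63.3 and 59.3 CPM in WT chow, and in WT NASH at 108, 101, 109, 54.4 and 95.4 CPM. KO chow gave 150, 163, 99.5, 73.8 and 63.7 CPM and KO NASH 118, 119, 122, 121 and 107 CPM. All 6 negative-slope libraries were below the other 14, as also for Keap1, and no comparison passed. Prdx6, a peroxiredoxin that uses glutathione, averaged 413, 458, 329 and 371 CPM in WT chow, WT NASH, KO chow and KO NASH and was not called.

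Nqo1, the quinone reductase often used as a readout of NRF2, stayed low. It stood at 5.09, 3.79, 13.4, 8.17 and 15.6 CPM in WT chow, and in WT NASH at 8.14, 12.9, 11.3, 6.47 and 7.04 CPM. KO chow gave 5.51, 6.80, 9.06, 14.4 and 31.8 CPM and KO NASH 10.3, 10.5, 10.7, 9.68 and 7.80 CPM. In both chow groups the highest libraries had a negative slope. No comparison passed, with log2 fold changes of 0 (95% confidence interval -0.87 to 0.88) for the diet in WT, 0.55 (-0.32 to 1.43) for the knockout on chow and 0.09 (-0.78 to 0.96) on the NASH diet. In the 14 libraries without a negative slope, the difference between the female WT NASH and the male WT chow livers was 1.16 (edgeR adjusted p 0.0266), and diet and sex cannot be told apart there.

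The RNA of the regulator Nfe2l2 varied little. It stood at 70.1, 63.5, 63.4, 58.4 and 69.4 CPM in WT chow. WT NASH gave 55.3, 71.5, 80.9, 59.0 and 61.0 CPM. KO chow gave 65.8, 62.8, 60.4, 71.7 and 60.0 CPM and KO NASH 63.5, 57.6, 67.2, 72.4 and 63.0 CPM. The 4 groups overlapped throughout. Its log2 fold change lay between -0.02 and 0.01 in the 4 comparisons (SE 0.138), and the 95% confidence intervals reached from -0.31 to 0.3 at the widest. Keap1, its inhibitor, stood at 51.8, 46.3, 33.6, 37.1 and 29.7 CPM in WT chow, and in WT NASH at 47.8, 40.3, 41.0, 20.6 and 41.5 CPM. KO chow gave 49.5, 46.2, 43.8, 31.7 and 30.3 CPM and KO NASH 41.4, 50.1, 61.5, 51.5 and 45.8 CPM. Its lowest libraries in each group but KO NASH had a negative slope, and no comparison passed (0.39, 95% confidence interval -0.07 to 0.84, in KO NASH against WT NASH).

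**Figure D3:**
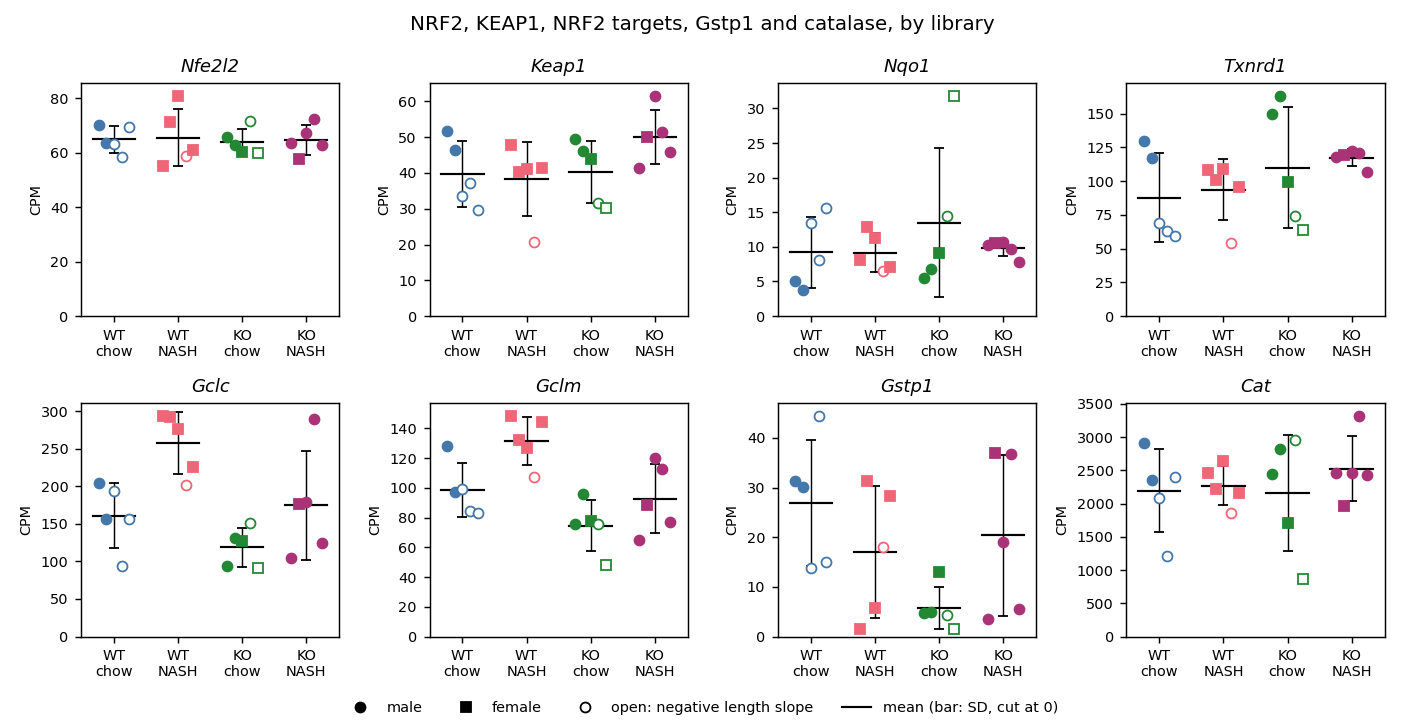
CPM (y axis) of the regulator pair, 4 further NRF2 target genes, Gstp1 and catalase, by library in the 4 groups (x axis), with symbols, lines and bars as in the plot of the called members. Nfe2l2 stays between 55.3 and 80.9 CPM in all 20 livers. For Txnrd1 the open symbols lie below the filled ones in each group but KO NASH, which has no open symbols.

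The dismutases and catalase were not called in the main fit. Sod1, the cytosolic copper and zinc enzyme, averaged 530, 411, 482 and 369 CPM in WT chow, WT NASH, KO chow and KO NASH. Sod2, the mitochondrial manganese enzyme, averaged 149, 146, 208 and 169 CPM, with a log2 fold change of 0.47 (95% confidence interval 0.1 to 0.84, edgeR adjusted p 0.132) in KO chow against WT chow. DESeq2 and limma voom called it there. Catalase, the peroxisomal enzyme that splits hydrogen peroxide, averaged 2194, 2268, 2162 and 2525 CPM, with intervals on the log2 scale within -0.62 to 0.82 over the 4 comparisons.

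The negative-slope libraries set apart 6 of the 38 tested members: 4 lay higher in all 6 of them than in all other 14 (Gstk1, Gstz1, Mgst1 and Gpx4) and 2 lower (Txnrd1 and Keap1), and 32 overlapped. The ratio of medians, negative-slope to other libraries, was 4.66 for Gpx4, 4.32 for Mgst1 and 3.73 for Prdx1, and 0.163 for Gstm3. The other 14 libraries are 2 of WT chow, 4 of WT NASH, 3 of KO chow and 5 of KO NASH. The negative-slope libraries are mostly from chow, so these ratios mix slope with diet. Gstm3 averaged 2.12 and 1.76 CPM in WT chow and KO chow, against 16.1 and 7.95 CPM in WT NASH and KO NASH. Without these 6 libraries, members called were 6 in WT NASH against WT chow (5 higher; 4.88% of all tested genes called), 2 in KO chow against WT chow (5.33% of all genes), 4 in KO NASH against KO chow (7.69%) and 15 in KO NASH against WT NASH (5 higher, 10 lower; 20.3% of all genes). Among the 10 lower in that last comparison were 5 mu-class genes, Gstm1 (-0.79, edgeR adjusted p 0.00226), Gstm2, Gstm3 (-1.2, adjusted p 0.00572), Gstm6 and Gstm7. WT NASH is all female in this comparison and KO NASH mostly male, so that genotype is nearly confounded with sex there. The calls of the full analysis kept in the 14 libraries were 3 of 5, 1 of 2, 1 of 1 and 5 of 5 in these comparisons in the same order. The 6 members set apart were not called in any of them, with log2 fold changes from -0.7 (Mgst1 in KO NASH against WT NASH, -1.47 in all 20 libraries) to 0.64 (Gstk1 in KO NASH against KO chow, -0.17 in all 20). This setting was chosen after the slopes were seen.

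**Figure D4:**
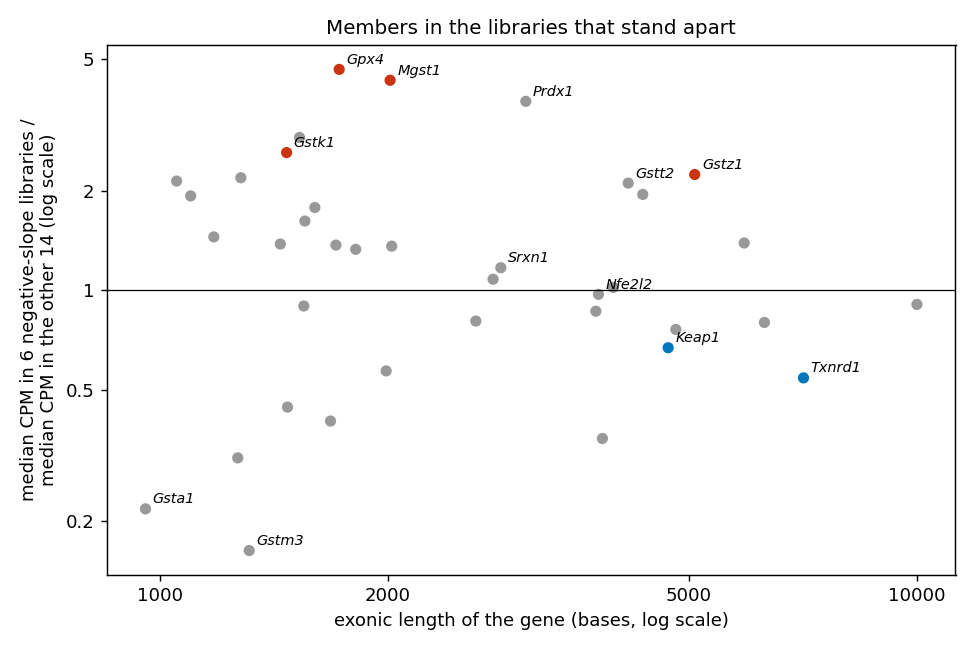
Ratio of the median CPM in the 6 negative-slope libraries to that in the other 14 (y axis, log scale) against exonic length in bases (x axis, log scale) for the 38 tested members. Red and blue points are the 4 and 2 members whose 6 negative-slope libraries all lie above or below the rest. The 6 libraries are mostly from chow groups and the other 14 mostly from NASH groups, so the ratio mixes slope with diet.

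Sex and cell-type markers moved with some of these comparisons. Of 6 female-liver genes, all 6 rose in WT NASH against WT chow and 5 in KO chow against WT chow, with summed levels from 1.69 to 4.71 CPM in WT chow, from 1.91 to 3723 CPM in WT NASH, from 8.44 to 3934 CPM in KO chow and from 322 to 1027 CPM in KO NASH. Of 5 male-liver genes, 4 were lower in every KO chow library than in every WT chow library, a separation seen in 4.91% of all tested genes. Their sum was 1069, 915 and 1113 CPM in the KO chow males and 2379 to 8589 CPM in WT chow. The female-liver sum ran from 8.44 to 548 CPM in KO chow males and from 322 to 666 CPM in KO NASH males. The sex term is shared by all groups and does not adjust for such differences between WT and KO males. The part of sex in the diet calls of Gstm1, Gstm6 and Srxn1, which a sex term ends, was not tested further. Of 7 pericentral hepatocyte genes, 2 fell in KO NASH against WT NASH, and their summed level ran from 6876 to 10118 CPM there against 6971 to 11142 CPM. Of 6 macrophage genes none was called in that comparison by edgeR (1 at an unadjusted p under 0.05), with 302 to 397 CPM in KO NASH and 363 to 1052 CPM in WT NASH. Of 6 endothelial genes 2 rose in that comparison, with a summed level of 202 to 324 CPM in KO NASH against 162 to 248 CPM in WT NASH. Of 5 red blood cell genes 2 fell with the diet in each genotype, with 25.0 to 179 CPM in WT NASH against 81.4 to 245 CPM in WT chow and 34.4 to 85.6 CPM in KO NASH against 89.5 to 182 CPM in KO chow. Of the 6 macrophage genes 1 rose in WT NASH against WT chow and 1 in KO chow against WT chow. In KO NASH against KO chow 1 of 6 stellate cell or fibroblast genes and 1 of 5 cholangiocyte genes rose. Among 5 T and B cell genes 1 rose in WT NASH against WT chow. The part of these cell types in the changes of the members was not tested.

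Of 65 further genes of glutathione use and NRF2 response, 57 could be tested. In WT NASH against WT chow 4 of them were called (7.02%, against 5.93% of all genes). Of these 2 rose, Chac1 (2.02, SE 0.408, edgeR adjusted p 0.00618), which breaks glutathione down, and Sod3 (1.51, adjusted p 0.0198), the secreted dismutase. Ggt6 (-0.86, adjusted p 0.0102) and Maff (-1.24, adjusted p 0.0145), a small MAF partner of NRF2, fell. In KO chow against WT chow 3 were called (5.26%, against 5.53% of all genes). Cbr1 (1.36, adjusted p 0.0418), a carbonyl reductase, and Txnip (0.91, adjusted p 0.0486), an inhibitor of thioredoxin, rose, and Osgin1 (-1.79, adjusted p 0.00411) fell.

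KO NASH against WT NASH had 6 further genes higher and 5 lower of the 57 (19.3%, against 9.65% of all genes). Maff rose (1.44, edgeR adjusted p 0.00403), as did Mafk (1.21, adjusted p 0.00813) and Oplah (0.92, adjusted p 0.0221), the 5-oxoprolinase of glutathione turnover. Chac1 fell (-2.29, adjusted p 0.00165), as did Txnrd3 (-1.19, adjusted p 0.00983) and Chac2 (-1.73, adjusted p 0.0199). Chac1 averaged 1.70, 6.89, 1.65 and 1.38 CPM in WT chow, WT NASH, KO chow and KO NASH. In KO NASH against KO chow 1 of 57 was called (1.75%, against 3.29% of all genes), Glrx (-1.49, adjusted p 0.033), a glutaredoxin.

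In the main fit no member passed the edgeR test of whether the knockout effect differed between diets. The interaction called 0 of 38 members, against 0.139% of all genes. At an unadjusted p under 0.05 there were 3, Gstp1 (2.48), Gstt2 (1.4) and Mgst3 (-2.99, SE 0.985, adjusted p 0.287). DESeq2 called 0 members and 1.31% of all genes. Other fits did call some: Gstt2 in the 14 libraries without a negative slope (1.27, adjusted p 0.0306; 0.518% of all genes) and Mgst3 with the length slope as a term (-2.58, adjusted p 0.02; 1.32% of all genes). The voom fit of limma, with quality weights, called Gsta2, Gstk1, Gstm1 and Gstt2 and 13.5% of all genes. In the 14 libraries WT chow is all male and WT NASH all female, so the Gstt2 interaction there mixes diet with sex.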

How the data were processed

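Liver RNA of 20 mice was analysed from the authors' deposited table of raw counts per gene symbol. Alignment used HISAT2 2.0.4 and genome build GRCm38, per the submitters' processing notes. The sources used here do not give the counter, its annotation or its use of strand. Columns name the NASH diet HFD and were matched to the NASH groups by their titles. Counts were tested in R 4.3.3 with edgeR 4.0.16: TMM scaling, filterByExpr with a minimum count of 10, 1 coefficient per group over all 20 libraries, the quasi-likelihood F test, and Benjamini-Hochberg adjustment over 14440 genes at 0.05. Depth was 9958935 to 20601955 counts per library. Levels are CPM with TMM-scaled library sizes. Reads carry no molecular identifiers, so count intervals cover counting error only. The labels number the mice but say no more of their origin, and p-values measure the spread between these livers.

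Sex was read as male at 100 or more counts over 4 Y-linked genes. Exonic lengths, gene positions and stretches of 50 bases shared between genes came from GENCODE M21 on GRCm38, matched by symbol. For each library, log2 CPM less its mean over libraries was regressed on log2 length, using 9482 genes whose log2 CPM averaged 2 or more.

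Values in every library are given for members called in any comparison (up to 3 of smallest p per comparison and direction) and for Nfe2l2, Keap1, Nqo1, Gclc, Srxn1, Txnrd1 and Gstp1. Further genes are named by smallest p, up to 3 per comparison and direction. Members, lists and alternatives were chosen with earlier results of these data known. The pattern TGAGNNNGC, the fits without or with only the negative-slope libraries, and females alone were added after seeing the data. KO NASH replicates 1 and 5 were the closest pair within a group but differed beyond sampling noise (chi-square per degree of freedom 7.27) and were kept as 2. Alternatives used DESeq2 1.42.0 and limma 3.58.1, and the procedure was tested on simulated data.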

Additional observations from a re-analysis of the deposited data

Results flagged for a closer look

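In groups of 5 libraries, 1 value lay far from the other 4 for 5 of the 56 groups formed by 14 named members; chance alone gives such a value in about 1 of 20 groups. Gsta1 was at 0.297 CPM in WT NASH replicate 2, against 0.00 to 0.0605 CPM in the others, which is a matter of 5 counts. Keap1 was at 20.6 CPM in WT NASH replicate 4 (40.3 to 47.8 CPM in the others), and Txnrd1 was at 54.4 CPM in the same library (95.4 to 109 CPM). That library is the only male and the only negative-slope library of its group. Txnrd1 was at 107 CPM in KO NASH replicate 5, against 118 to 122 CPM, and Gstp1 at 13.0 CPM in KO chow replicate 3, a female liver, against 1.58 to 4.87 CPM.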

How the results depend on the processing

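No call of a member changed direction in any setting that could be run. Counts of members called are given here in 1 order: diet in WT, knockout on chow, knockout on the NASH diet, diet in KO, and interaction. They stand beside 5, 2, 5, 1 and 0 in the main analysis, and the share of all tested genes called by the same fit follows each set. Limma voom with quality weights gave 18, 16, 15, 5 and 4 (40.6, 40.4, 23.8, 12.7 and 13.5%). DESeq2 gave 5, 5, 7, 2 and 0 (10.4, 9.62, 15.2, 9.02 and 1.31%). The length slope as a term gave 10, 5, 12, 3 and 1 (12.2, 11.4, 16.5, 6.37 and 1.32%), sex as a term 2, 2, 3, 1 and 0 (1.11, 5.84, 4.33, 3.98 and 0.0277%), and both terms 6, 9, 9, 5 and 0 (5.01, 13.8, 10.4, 9.37 and 0.478%). Fitting only the groups compared gave 3, 1, 11 and 1 (2.74, 2.20, 15.2 and 2.33%). A minimum mean of 5 CPM gave 5, 1, 2, 1 and 0 (7.42, 5.92, 9.17, 3.29 and 0.126%). Close paralogs summed gave 2, 1, 3, 0 and 0 (5.89, 5.52, 9.64, 3.28 and 0.139%), and KO NASH replicates 1 and 5 summed 4, 2, 3, 1 and 0 (5.37, 4.85, 5.23, 1.23 and 0.0274%). Males alone gave 0, 3, 7, 0 and 0 (0.596, 6.23, 13.0, 0.370 and 0.0314%), with 1 male in WT NASH. The 14 libraries without a negative slope gave 6, 2, 15, 4 and 1 (4.88, 5.33, 20.3, 7.69 and 0.518%), and the 6 with one gave 0 and 0 (0.249 and 0.353%) for the diet in WT and the knockout on chow. Females alone gave 0 in KO NASH against WT NASH and 0 in KO NASH against KO chow (0.138 and 0.00%), with 1 female in KO NASH. The cause of these differences was not tested.

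Leaving out 1 library gave 2 to 5, 1 to 4, 3 to 7, 1 to 2 and 0 to 0, while the share of all genes ran from 2.82 to 11.7%, 2.37 to 8.32%, 4.89 to 11.8%, 1.01 to 5.40% and 0.0272 to 0.981%. The count moved by over 1.5 times without WT chow replicate 3 (2), WT chow 4 (3) or WT NASH 2 (2), 3 (2) or 5 (3) in WT NASH against WT chow. In KO chow against WT chow it was 1 without WT chow 1, 2, 3 or 4 or KO chow 2, and 4 without KO chow 3. In KO NASH against WT NASH it was 3 without WT chow 3 or 5, WT NASH 2 or 5, KO chow 4, or KO NASH 1, 3 or 5. In KO NASH against KO chow it was 2 without KO chow 3.

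Under a replicate block the counts were 5, 3, 5, 1 and 0 (7.11, 6.11, 10.1, 3.70 and 0.0277% of all genes). The block ended the Prdx1 call (-1.43, edgeR adjusted p 0.0635) and added Gsta3 (-1.47, adjusted p 0.0392) in KO NASH against WT NASH and Gstm4 (0.86, adjusted p 0.0491) in KO chow against WT chow. In no comparison did every same-numbered pair deviate together: 2, 4, 1 and 2 of 5 pairs had a correlation over 0.1 in the 4 comparisons, and 2, 1, 1 and 1 libraries correlated best with their own number. At 7 to 25 reads per CPM, depth limits Gsta1 and Gstp2.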
